A study of Rattus norvegicus with 58 samples.

Results

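The growth hormone and IGF axis was followed here through 10 genes: the receptor Ghr, the signal carriers Stat5a and Stat5b, the feedback inhibitor Socs2, the ligand Igf1, the carrier proteins Igfals, Igfbp1, Igfbp2 and Igfbp3, and the receptor Igf1r. They were found as all probe sets of the array that are annotated with a single gene symbol and carry one of these names. This gave 15 of 31099 probe sets, and 10 of the 14217 genes that have such a probe set. Ghr, Igfbp3 and Igf1r had 2 probe sets each, Igf1 had 3, and the other genes had 1. Livers and kidneys came from male rats of the Harlan Sprague-Dawley stock that received the alicyclic alcohol 4-methylcyclohexanemethanol (MCHM) by gavage over 5 days. Each organ had 4 arrays at each of 0.1, 1, 10, 100, 300 and 500 mg/kg and 5 arrays at 0 mg/kg, each from a biological replicate, so that 29 liver and 29 kidney arrays were compared. The labels give neither the age of the rats nor the vehicle, and the rats carried no genetic change that the labels name. All values are log2 values of whole organ RNA, in which fewer cells of a type and less RNA per cell cannot be told apart.

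Growth hormone from the pituitary binds its receptor, encoded by Ghr, which works through the kinase JAK2 and the transcription factors STAT5A and STAT5B. In liver these switch on Igf1, the main source of circulating IGF-I, as well as Igfals and Socs2, whose product feeds back on the receptor. IGF-I circulates mostly in a complex with IGFBP-3 and the acid labile subunit made from Igfals. IGFBP-1 and IGFBP-2 carry IGF-I outside that complex, and hepatic Igfbp1 is known to be held down by insulin and raised by fasting. IGF-I acts through the receptor tyrosine kinase encoded by Igf1r.

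RefSeq promoter windows of assembly GRCr8, reaching from 250 bases before to 50 bases after the annotated start, were found for 9 of the 10 genes. Each was searched on both strands for TTCNNNGAA, the motif bound by STAT5, and for CAAAACAA, one arm of the insulin response element described in the Igfbp1 promoter. TTCNNNGAA had no match in the 9 windows, and 8.87% of all 33469 windows of this length hold it. CAAAACAA was found in 2 of the 9, those of Igf1 and Igfbp1, and in 2.23% of all windows. The motif was taken from the Igfbp1 promoter, so its match there was foreseeable and is no result. Of the other member windows only that of Igf1 held it. The 2 motifs did not overlap in any printed window, and a match is a match of letters, not a shown site. The windows of these 2 genes are shown for that match, and that of Ghr because it was the only member called with dose. Ghr lies on the minus strand at chr2:54432026-54432325, Igf1 on the plus strand at chr7:24172282-24172581 and Igfbp1 on the plus strand at chr14:86261027-86261326. Capitals mark CAAAACAA, which begins 67 bases before the Igf1 start and 121 bases before the Igfbp1 start. The sequences run 5′ to 3′ along the gene.
Ghr: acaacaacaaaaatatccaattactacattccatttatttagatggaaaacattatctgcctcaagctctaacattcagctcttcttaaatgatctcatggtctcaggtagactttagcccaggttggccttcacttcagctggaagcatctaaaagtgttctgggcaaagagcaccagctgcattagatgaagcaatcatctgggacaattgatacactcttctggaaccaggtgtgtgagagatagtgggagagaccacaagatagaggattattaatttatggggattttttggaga
Igf1: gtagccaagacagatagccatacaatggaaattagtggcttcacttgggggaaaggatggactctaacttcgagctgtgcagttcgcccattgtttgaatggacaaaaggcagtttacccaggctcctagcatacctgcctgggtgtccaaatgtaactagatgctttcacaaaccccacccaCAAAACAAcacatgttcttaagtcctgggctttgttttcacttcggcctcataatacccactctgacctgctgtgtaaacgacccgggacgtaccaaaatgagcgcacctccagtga
Igfbp1: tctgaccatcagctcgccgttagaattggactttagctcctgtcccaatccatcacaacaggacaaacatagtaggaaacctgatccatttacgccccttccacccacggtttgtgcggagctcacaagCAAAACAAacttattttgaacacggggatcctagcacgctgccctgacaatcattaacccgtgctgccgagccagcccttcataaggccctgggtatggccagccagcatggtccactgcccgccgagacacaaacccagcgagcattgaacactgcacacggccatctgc

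Testing in an organ required a value over the 40th percentile of the same array, on 4 or more arrays of that organ. In liver 14 of the 15 were tested, the exception being Igf1r probe set 1392492_at, and in kidney 14, the exception being Socs2. Tests were made with limma over all 20008 tested probe sets in liver and 19661 in kidney, and a probe set was called at a Benjamini-Hochberg adjusted p under 0.05. Marker genes separated the organs as labelled. The 5 hepatocyte markers on the array, of 6 listed, averaged 13.88 to 14.05 over liver arrays and 5.04 to 8.36 over kidney arrays. The 8 kidney markers, of 9 listed, averaged 10.46 to 11.02 in kidney and 4.21 to 4.68 in liver. Some kidney arrays stood apart. The second untreated kidney had the highest hepatocyte marker mean (8.36). The third kidneys at 300 and 500 mg/kg had adipose marker means of 10.07 and 9.18 over 7 genes, against 4.63 to 5.56 in untreated kidneys.

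At 500 mg/kg the growth hormone receptor transcript fell in liver on probe set 1373803_a_at. The other probe set was not called, and no test compared the 2. Probe set 1373803_a_at gave 11.48, 11.53, 11.52 and 11.60 in livers at 500 mg/kg, against 11.78, 11.88, 11.80, 11.84 and 11.87 in untreated livers. All 4 dosed arrays lay below all 5 untreated ones. The log2 difference was -0.30 (SE 0.06, 95% interval -0.42 to -0.17, adjusted p = 0.0205 in limma), a level that fell by 18.7%. At 300 mg/kg the 4 livers stood at 11.50, 11.72, 11.42 and 11.68, also below every untreated liver, and their mean difference of -0.25 was not called (adjusted p = 0.233). From 0.1 to 100 mg/kg the group means ran between 11.73 and 11.89, around the untreated mean of 11.83. Over the dose ranks the slope was -0.05 per rank (SE 0.01, adjusted p = 0.00725), which was called.

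The other Ghr probe set, 1368924_at, gave 8.55, 8.23, 8.61 and 8.64 in livers at 500 mg/kg, against 8.51, 8.84, 8.51, 8.53 and 8.42 in untreated livers. These groups overlapped, with a difference of -0.05 (95% interval -0.32 to 0.21, adjusted p = 0.923). Its highest group mean was 8.80, at 1 mg/kg, and its lowest 8.50, at 300 mg/kg. Around the dose group means the 2 probe sets were nearly unrelated across the 29 livers (r = 0.089), whereas the pairs of Igf1 probe sets had r between 0.649 and 0.826 and the Igfbp3 pair 0.918, with array and normalization shared. The rat Ghr gene gives both the full receptor and a shorter, secreted binding protein, and the annotation used here does not say which transcripts each probe set reads. With the 2 probe sets averaged the difference was -0.18 and was not called (adjusted p = 0.298). The call at 500 mg/kg was also lost without the fifth untreated liver (adjusted p = 0.056), without the first liver at 500 mg/kg (adjusted p = 0.0731) and without the third (adjusted p = 0.0556). It was lost too without the intensity trend in limma (adjusted p = 0.0558) and with the replicate number as a block (adjusted p = 0.0622). The call of the slope was lost with the 2 probe sets averaged (adjusted p = 0.0971).

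**Figure D1:**
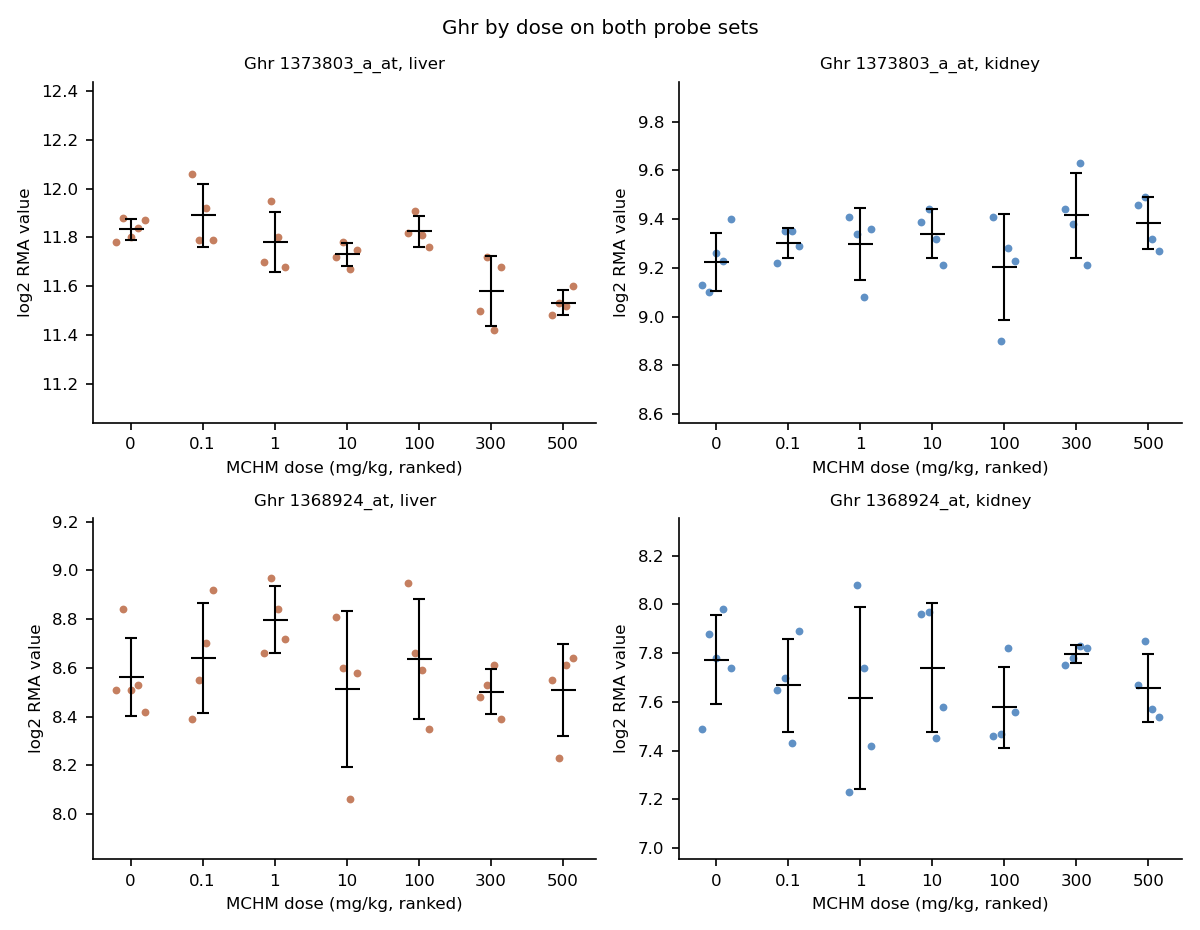
Log2 RMA values of both Ghr probe sets by MCHM dose, with liver panels on the left and kidney panels on the right. Points are arrays and black marks are means ± SD (n = 4 per dose, n = 5 at 0 mg/kg). On 1373803_a_at the livers at 300 and 500 mg/kg lie below all untreated livers, and the other 3 panels show overlapping groups.

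Neither of the signal carriers was called in liver at any dose. Stat5b, the form that predominates in liver, gave 6.22, 6.54, 6.17 and 6.32 in livers at 500 mg/kg, against 6.43, 6.89, 6.44, 6.67 and 6.61 in untreated livers. The groups overlapped in 1 dosed liver, and the difference was -0.29 (SE 0.11, adjusted p = 0.236). Stat5a, its neighbour on the chromosome, differed by 0.10 (95% interval -0.12 to 0.33, adjusted p = 0.772).

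Socs2, which restrains the receptor, gave 6.48, 6.31, 6.61 and 5.22 in livers at 500 mg/kg, against 6.50, 6.61, 7.75, 7.92 and 6.43 in untreated livers. The untreated livers fell into a higher pair and a lower trio, and the dosed arrays overlapped the trio. The difference of -0.89 was the largest in size among the tested members in liver at this dose, and its error was also large (SE 0.37, adjusted p = 0.308). At 300 mg/kg the 4 livers stood at 6.21, 7.08, 5.80 and 6.41, and at 100 mg/kg at 6.79, 7.18, 7.63 and 7.90. The means of these 2 neighbouring doses, 6.37 and 7.37, lay on different sides of the untreated mean of 7.04.

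Igf1, the hepatic output of the axis, had lower values at 500 mg/kg on its 3 probe sets, none of which was called. Probe set 1382599_at gave 11.45, 11.35, 11.36 and 11.46 in livers at 500 mg/kg, against 11.85, 11.66, 11.72, 11.64 and 11.65 in untreated livers. Every dosed array lay below every untreated one, with a difference of -0.30 (SE 0.08, adjusted p = 0.0878). Probe set 1388469_at gave 12.89, 12.71, 12.69 and 12.78 in livers at 500 mg/kg, against 13.10, 12.89, 13.03, 13.09 and 13.00 in untreated livers. These groups met at 12.89 without overlapping, with a difference of -0.26 (SE 0.08, adjusted p = 0.159). On the brightest, 1370333_a_at, livers at 500 mg/kg read 13.22, 13.13, 13.13 and 13.13, against 13.38, 13.18, 13.32, 13.35 and 13.30 in untreated livers. There the groups overlapped in 1 dosed liver, with a difference of -0.16 (SE 0.05, adjusted p = 0.154).

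The 3 Igf1 slopes over the dose ranks were -0.02, -0.04 and -0.03 per rank for 1370333_a_at, 1382599_at and 1388469_at (adjusted p = 0.08, 0.0694 and 0.126). With dose in mg/kg as the term the first 2 were called (adjusted p = 0.0183 and 0.0188). Leaving out a single liver also brought 1370333_a_at past the threshold for the rank slope in 1 of 29 fits (without the second untreated liver, adjusted p = 0.0378). For 1382599_at this held in 2 of 29 (without the first liver at 1 mg/kg, adjusted p = 0.0428, and without the fourth at 300 mg/kg, adjusted p = 0.027). At 500 mg/kg 1382599_at was called when only the compared groups were fitted (adjusted p = 0.0416).

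**Figure D2:**
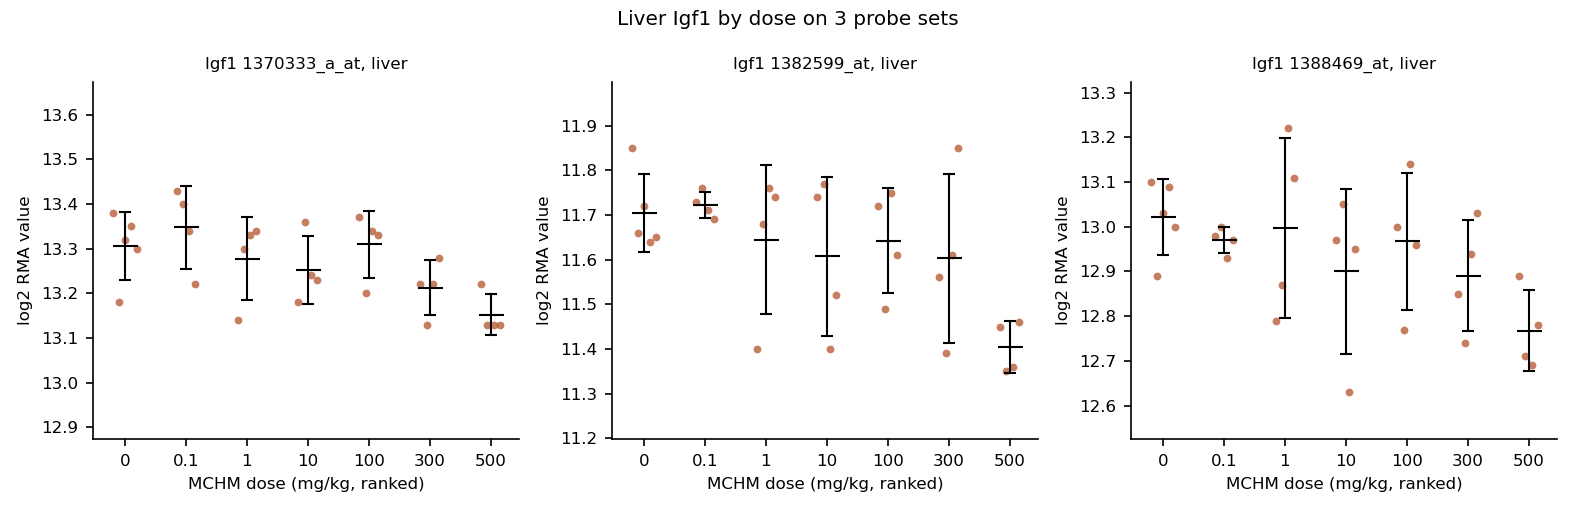
Log2 RMA values of the 3 Igf1 probe sets in liver by MCHM dose. Points are arrays and black marks are means ± SD (n = 4 per dose, n = 5 at 0 mg/kg). The lowest group mean of each panel is at 500 mg/kg, at 13.15, 11.40 and 12.77 from left to right, against untreated means of 13.31, 11.71 and 13.02.

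Of the other parts of the circulating complex, Igfals gave 9.74, 10.33, 10.05 and 9.83 in livers at 500 mg/kg, against 10.64, 9.68, 10.16, 10.58 and 10.27 in untreated livers. All dosed values lay within the untreated range, and the difference of -0.28 was not called (SE 0.17, adjusted p = 0.529). Igfbp3 gave 9.68, 9.79, 9.54 and 9.58 on probe set 1367652_at in livers at 500 mg/kg, against 9.57, 9.70, 10.00, 10.02 and 9.89 in untreated livers. Both Igfbp3 probe sets had their lowest group mean at 500 mg/kg (differences -0.19 and -0.17, adjusted p = 0.413 and 0.515) and their highest at 300 mg/kg. Both slopes were -0.01 per rank (adjusted p = 0.81 for both).

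Igfbp1, the insulin-regulated binding protein, had the widest spread among the tested members in liver, with a pooled SD of 0.97 within groups. It gave 10.38, 8.75, 9.37 and 8.79 in livers at 500 mg/kg, against 9.30, 10.40, 9.18, 7.21 and 10.15 in untreated livers. The untreated livers alone covered over 3 log2 units, and the difference at 500 mg/kg was 0.07 (95% interval -1.12 to 1.26, adjusted p = 0.981). Its group means were 10.54 at 0.1 mg/kg, 10.00 at 1, 10.69 at 10, 10.14 at 100 and 10.34 at 300 mg/kg. All were above the untreated mean of 9.25, and none of these differences was called (adjusted p at least 0.687). Igfbp2 gave 7.70, 7.63, 7.80 and 6.98 in livers at 500 mg/kg, against 7.06, 8.78, 8.08, 7.02 and 7.97 in untreated livers (difference -0.25, 95% interval -1.02 to 0.51, adjusted p = 0.85).

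Igf1r, the receptor for the ligand, was dim in liver. Probe set 1368123_at gave 5.39, 5.12, 5.21 and 5.32 in livers at 500 mg/kg, against 5.34, 5.51, 5.84, 5.13 and 5.47 in untreated livers. The groups overlapped, and the difference was -0.20 (95% interval -0.58 to 0.18, adjusted p = 0.722). The untested probe set 1392492_at averaged 4.30 in livers at 500 mg/kg and 4.49 in untreated livers, and exceeded the 40th percentile on 2 of 29 liver arrays.

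Over all members, 1 of 14 tested probe sets was called lower and 0 higher in liver at 500 mg/kg, where 0.65% of all tested probe sets were called. The members' median difference was -0.23 and 12 of 14 were below 0, against a median of 0.002 over all tested probe sets, of which 49.5% were below 0. At the lower doses 7 of 14 were below 0 at 0.1 mg/kg, 11 at 1, 12 at 10, 8 at 100 and 9 at 300 mg/kg. Over all tested probe sets these shares were 53.1%, 45.9%, 47.3%, 51% and 53%. Every dose was set against the same 5 untreated livers. The 14 are not independent, since several read the same gene. On 3 of the 14 every liver at 500 mg/kg lay below every untreated liver, as on 2.79% of all tested probe sets. These were 1373803_a_at of Ghr and 1382599_at and 1388469_at of Igf1. For the dose slope 1 of 14 was called, with 1.13% called over all probe sets. At 300 mg/kg 0 members were called, with 0.02% over all, and at 0.1, 1, 10 and 100 mg/kg 0 members, with 0% over all. At an unadjusted p under 0.05 in limma, the members that passed numbered 1 at 0.1 mg/kg (4.17% over all), 0 at 1 mg/kg (5.79%), 1 at 10 mg/kg (6.13%), 0 at 100 mg/kg (3.79%), 1 at 300 mg/kg (7.6%) and 6 at 500 mg/kg (12.5%). For the slope 5 passed (14.9% over all).

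Beside these values, the hepatocyte marker mean was 13.88 to 13.93 in livers at 500 mg/kg and 13.94 to 14.05 in untreated livers, and did not overlap. The shift was small, with group means of 13.91 and 13.99. Of the 6 hepatocyte probe sets 5 were below 0, with a median of -0.03, and that of Apoa1, an apolipoprotein, fell (-0.30, SE 0.07, adjusted p = 0.0291). The mean of the 6 macrophage and Kupffer cell markers on the array, of 8 listed, was 7.98 to 8.55 in livers at 500 mg/kg and 8.40 to 8.62 in untreated livers. On single probe sets 0 of 7 of these were above 0 at 500 mg/kg (median -0.28), as were 1 of 11 stellate and stromal (median -0.20) and 1 of 8 endothelial (median -0.10), none of them called at that dose. Of the 5 lymphocyte probe sets 4 were above 0 (median 0.12), and that of Jchain fell (-0.87, adjusted p = 0.042). For the dose slope 2 of the 7 macrophage and Kupffer cell probe sets were called lower. Of the 5 lymphocyte ones 1 was called lower, and 0 of the hepatocyte, stellate and stromal or endothelial ones were called. The part of these cells in the values of the axis was not tested.

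**Figure D3:**
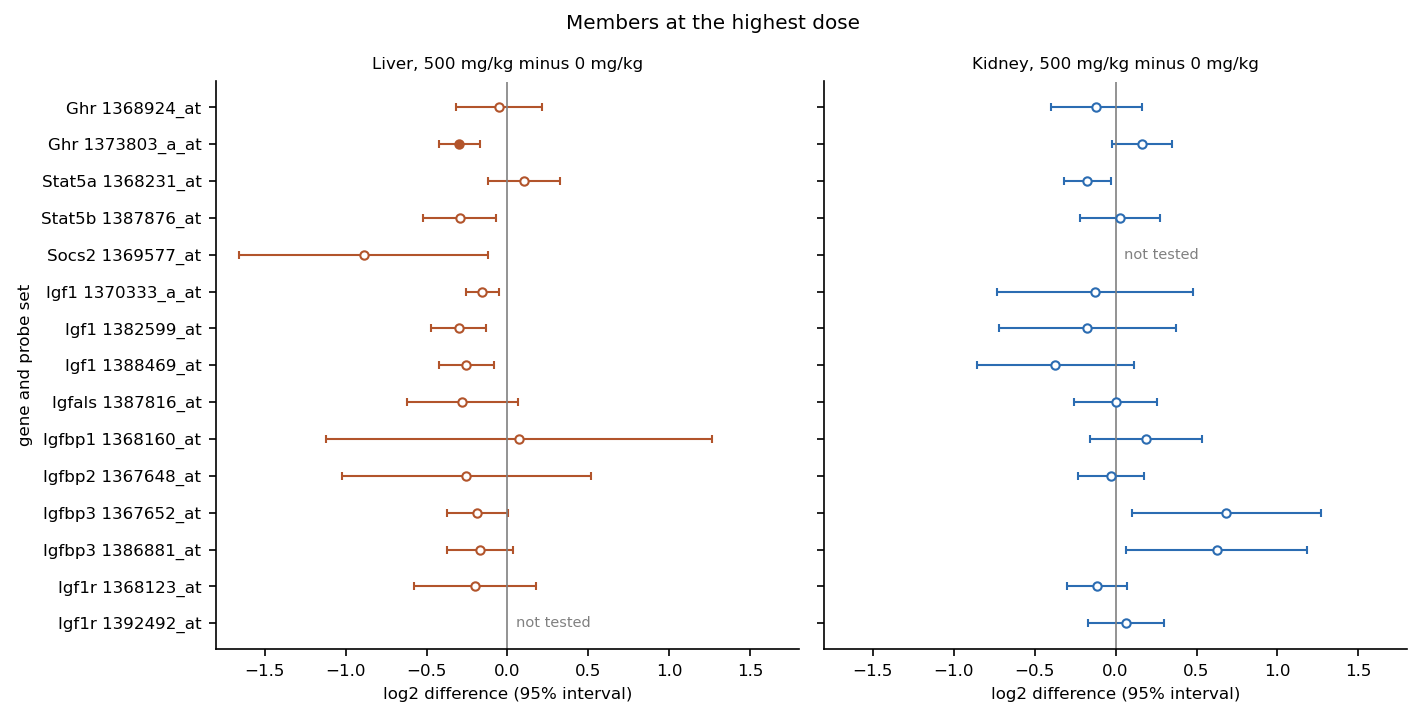
Log2 differences of 500 mg/kg minus 0 mg/kg for each member probe set, with liver on the left and kidney on the right. Circles are limma estimates (4 against 5 arrays), bars are 95% intervals, and the filled circle is the single called value, Ghr 1373803_a_at in liver at -0.30. Of the 14 tested in liver 12 lie below 0, and in kidney 7 of 14 do. In liver at 10 mg/kg, not drawn here, 12 of 14 were below 0 too.

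Apart from dose, some members moved together from liver to liver. Deviations of each array from its dose group mean were correlated over the 29 livers for the 45 pairs of the 10 genes, using the brightest tested probe set of each. Permutation within dose groups called 6 pairs after adjustment over the 45 by Pearson's r, and 5 of these also by Spearman's rho. The share of pairs that would pass among all tested probe sets was not computed, and deviations share arrays and normalization. The count is therefore not shown to be particular to the axis. Igfals and Igfbp2 were opposed in the strongest relation (r = -0.735, adjusted permutation p = 0.0045, rho = -0.707, adjusted permutation p = 0.0072). Without the 2 livers farthest from the Igfals median r was -0.664. Igfbp1 and Igfbp2 were aligned (r = 0.67, adjusted permutation p = 0.0153, rho = 0.632, adjusted permutation p = 0.0343, r = 0.615 without 2 livers).

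Igf1 was aligned with Igfals (r = 0.629, adjusted permutation p = 0.0164, rho = 0.583, adjusted permutation p = 0.0343, r = 0.664 without 2 livers) and opposed to Igfbp2 (r = -0.577, adjusted permutation p = 0.0237, rho = -0.56, adjusted permutation p = 0.036, r = -0.566 without 2 livers). Igfals was also opposed to Igfbp1 (r = -0.625, adjusted permutation p = 0.0237, rho = -0.596, adjusted permutation p = 0.0343, r = -0.63 without 2 livers). Livers with more of the complex-forming Igf1 and Igfals thus had less Igfbp2. Stat5a and Igfals passed by r only (r = 0.562, adjusted permutation p = 0.0426, rho = 0.522, adjusted permutation p = 0.0733). Ghr 1373803_a_at and Igf1, which were both low at 500 mg/kg, had an r of 0.032 within groups (adjusted permutation p = 0.933, rho = 0.019). In kidney 0 of 36 pairs passed. The raw permutation p of the 6 pairs ran between 1e-04 and 0.00568.

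**Figure D4:**
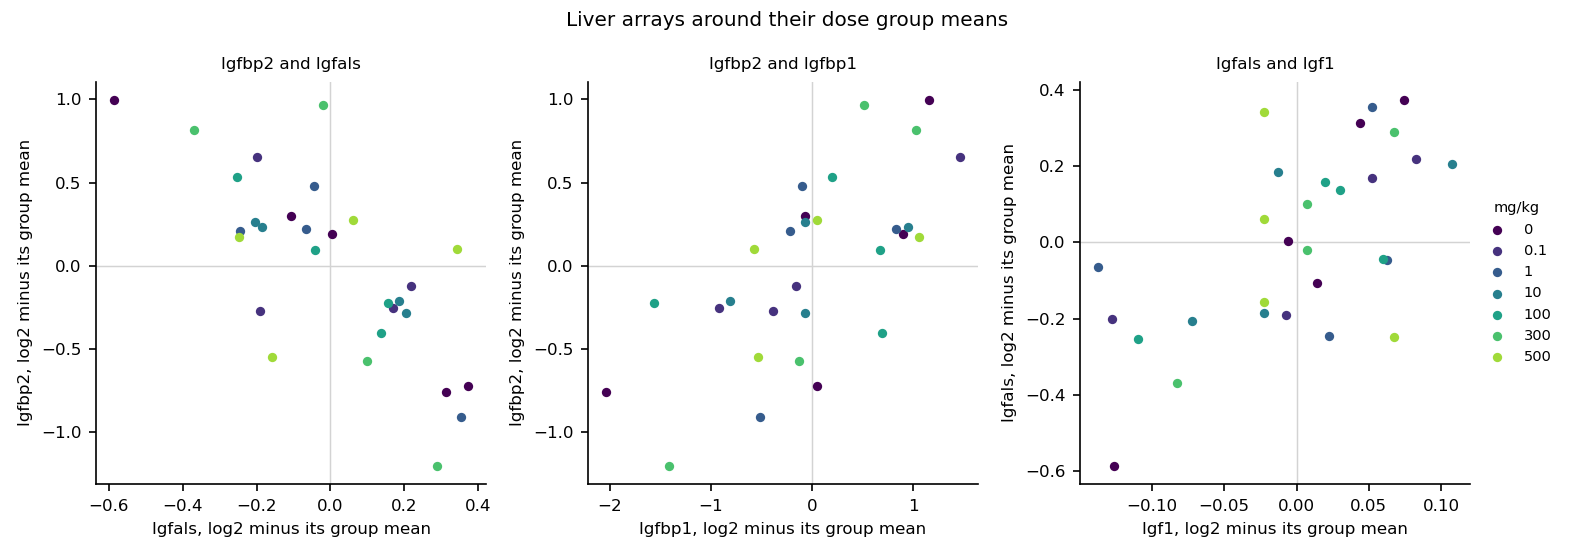
Deviations of 29 liver arrays from their dose group means (log2), for Igfbp2 against Igfals, Igfbp2 against Igfbp1 and Igfals against Igf1. Points are arrays, coloured by dose. The left panel falls (r = -0.735) and the others rise (r = 0.67 and 0.629), with livers of several doses at both ends.

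In kidney no member was called at any dose or in the slope. The share called over all tested probe sets was 0% at 0.1, 1, 10, 100 and 300 mg/kg, 0.0203% at 500 mg/kg and 0.0966% for the slope. At an unadjusted p under 0.05 in limma, the members that passed numbered 2 at 0.1 mg/kg (7.54% over all), 2 at 1 mg/kg (8.52%), 0 at 10 mg/kg (6.31%), 0 at 100 mg/kg (4.65%), 1 at 300 mg/kg (6.2%) and 3 at 500 mg/kg (8.43%). For the slope 0 passed (8.73% over all). Ghr 1373803_a_at gave 9.46, 9.49, 9.32 and 9.27 in kidneys at 500 mg/kg, against 9.13, 9.10, 9.26, 9.23 and 9.40 in untreated kidneys. The groups overlapped and the difference was 0.16 (95% interval -0.02 to 0.35, adjusted p = 0.657). On 1368924_at the difference was -0.12 (adjusted p = 0.864).

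Igfbp3, which endothelial and interstitial cells of the kidney are known to make, had its highest kidney group mean at 500 mg/kg. Probe set 1367652_at gave 10.45, 10.52, 10.74 and 9.81 in kidneys at 500 mg/kg, against 10.54, 9.66, 9.60, 9.86 and 8.83 in untreated kidneys. The difference was 0.68 (SE 0.28, adjusted p = 0.477), and on 1386881_at it was 0.62 (SE 0.27, adjusted p = 0.512). The values at 0.1 and 1 mg/kg were close to those at 500 mg/kg, with means of 10.32 and 10.30 on 1367652_at. The third kidney at 500 mg/kg, with its high adipose markers, was the highest of the group. Without both kidneys of high adipose markers the differences were 0.56 and 0.54 (adjusted p = 0.827 and 0.842).

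Igfals in kidney gave 7.12, 6.98, 7.16 and 6.90 at 0.1 mg/kg, against 7.15, 6.45, 6.53, 6.48 and 6.57 in untreated kidneys, with a difference of 0.40 (SE 0.12, adjusted p = 0.585). At 500 mg/kg its difference was 0.002 (95% interval -0.25 to 0.26). Stat5a gave 6.39, 6.55, 6.40 and 6.42 in kidneys at 500 mg/kg, against 6.52, 6.78, 6.67, 6.63 and 6.48 in untreated kidneys (difference -0.18, SE 0.07, adjusted p = 0.461). Igf1 was high on single arrays in kidney. On 1370333_a_at the third untreated kidney read 9.40 and the third kidney at 300 mg/kg 9.59, and all other kidneys lay between 7.63 and 8.96. The difference at 500 mg/kg on this probe set was -0.13 with all arrays (adjusted p = 0.946) and 0.14 without that untreated kidney. Without the same kidney it was 0.05 on 1382599_at and stayed below 0 on 1388469_at, at -0.14. The adipose marker mean was 4.82 in that untreated kidney and 10.07 in the third kidney at 300 mg/kg, and the part of adipose tissue in the values was not tested.

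Subtracting the effect in kidney from that in liver at 500 mg/kg gave a contrast that called 0 of 15 member probe sets, with 0.0895% called over all 21226 tested. Ghr 1373803_a_at had the smallest p of the members, with a liver effect of -0.30, a kidney effect of 0.16 and a difference of -0.46 (SE 0.11, adjusted p = 0.0741). It was called in 2 of 12 other settings, among them arrays of equal dose and number as a random block (adjusted p = 0.0472). Over these settings the difference lay between -0.48 and -0.20, with adjusted p up to 0.692. It was also called in 2 of 18 fits that left out an array. These were without the fifth untreated kidney (adjusted p = 0.0496) and without the fourth kidney at 500 mg/kg (adjusted p = 0.0376). Both Igfbp3 probe sets followed by p, at -0.87 and -0.79 (adjusted p = 0.38 and 0.437). The other Ghr probe set, 1368924_at, had a difference of the other sign, at 0.06, and was not called. Socs2 stood at -0.85, but its values lay under the 40th percentile in every kidney. A change of Socs2 in kidney could not be read there, so this value mostly restates its liver difference of -0.89. It is a description and no test between organs. The same holds for the Igf1r probe set that was not tested in liver and entered through kidney alone. Both are counted among the 15. At an unadjusted p under 0.05, 5 of the 15 passed in limma (7.63% over all).

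In untreated rats Igf1, Igfals, Ghr and Stat5b were higher in liver than in kidney. Of the 15 probe sets 12 were called between untreated liver and untreated kidney, 10 higher and 2 lower in liver, and 73.9% of all 21226 tested probe sets were called too, so that the members' share is near the background. The 12 include Socs2 and Igf1r 1392492_at, which were tested in a single organ otherwise. Each passed the filter only through the organ where it was higher, so these calls are a description. Igf1 was higher in liver by 4.98, 5.46 and 5.26 on its 3 probe sets (SE 0.17 to 0.21, adjusted p at most 9.66e-28). On 1370333_a_at it averaged 13.31 ± 0.08 in liver and 8.33 ± 0.61 in kidney (SD, n = 5 each), a ratio of 31.6. Igfals was higher in liver by 3.63 (SE 0.14, adjusted p = 1.66e-28), with 10.27 ± 0.39 in liver and 6.64 ± 0.29 in kidney (SD, n = 5 each). Ghr was higher in liver by 2.61 on 1373803_a_at (SE 0.07, adjusted p = 5.35e-35) and by 0.79 on 1368924_at (SE 0.13, adjusted p = 4.47e-07).

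Socs2 averaged 7.04 ± 0.73 in liver and 3.86 ± 0.24 in kidney (SD, n = 5 each). Its kidney values lay under the 40th percentile on 29 of 29 arrays, so that it entered this fit through liver alone, and its levels are given as a description. Stat5b was higher in liver by 1.28 (SE 0.11, adjusted p = 4.72e-15) and Stat5a by 0.24 (SE 0.09, adjusted p = 0.0114). Without the first untreated liver Stat5a was not called (adjusted p = 0.062). Igf1r was lower in liver on 1368123_at, with a log2 difference of -1.69 (SE 0.14, adjusted p = 1.54e-15) and means of 5.46 ± 0.26 in liver and 7.15 ± 0.14 in kidney (SD, n = 5 each). Its other probe set, 1392492_at, averaged 4.49 ± 0.32 in liver and 7.91 ± 0.21 in kidney (SD, n = 5 each). It entered through kidney alone, and these levels too are a description.

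The binding proteins were less apart. Igfbp1 averaged 9.25 ± 1.26 in liver and 8.29 ± 0.07 in kidney (SD, n = 5 each), a difference of 0.97 (SE 0.42, adjusted p = 0.0376). Leaving out an untreated array moved that difference between 0.68, without the second liver, and 1.48, without the fourth. The call was lost in 7 of 10 fits that left out an untreated organ (without the first, the second or the fifth liver, adjusted p = 0.057, 0.159 and 0.13, and without any of the first 4 kidneys, adjusted p between 0.0502 and 0.0584). Igfbp2 differed by -0.23 (adjusted p = 0.44) and Igfbp3 by 0.14 and 0.32 (adjusted p = 0.556 and 0.145). Igfbp3 on 1386881_at was called without the first untreated kidney (0.48, adjusted p = 0.0301). Without the second untreated kidney, the one with high hepatocyte markers, the Igf1 differences were 4.91, 5.40 and 5.22 and the Igfals difference 3.58. The sources used here do not say whether 1 normalization spanned both organs. With quantile normalization over all 58 arrays the Ghr 1368924_at difference was 0.92 and the number of called members stayed at 12.

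**Figure D5:**
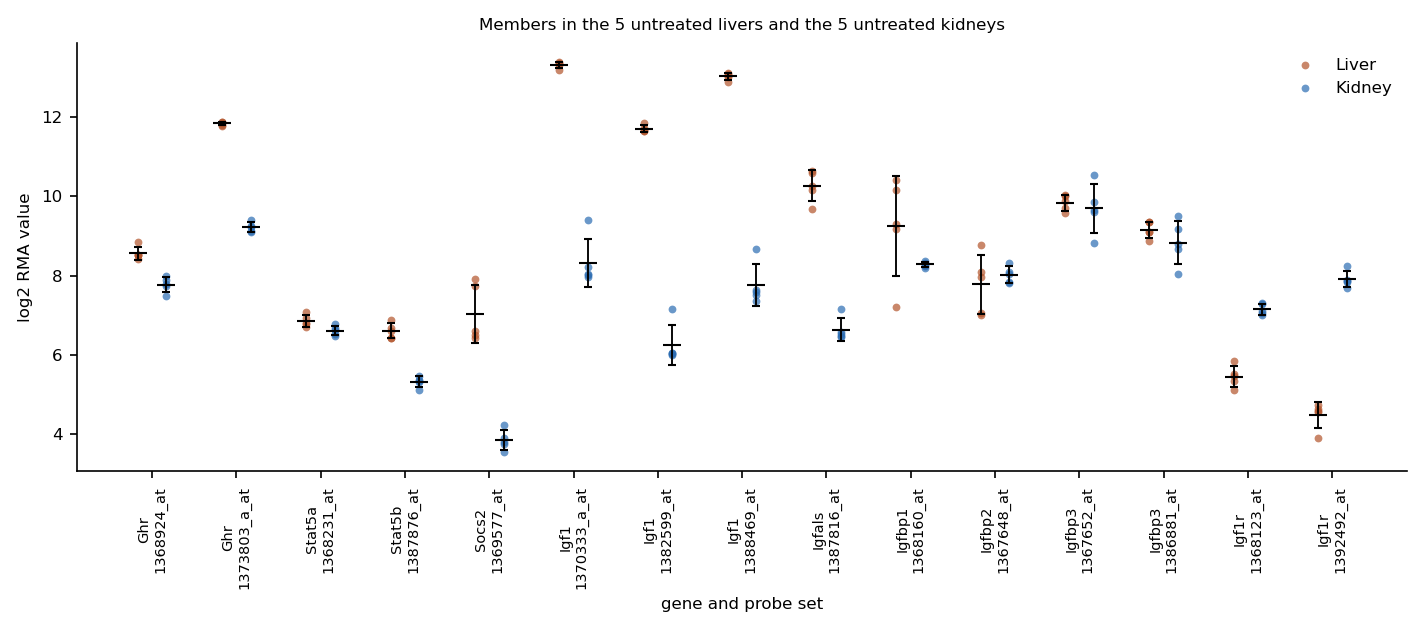
Log2 RMA values of the 15 member probe sets in untreated livers (left of each pair) and untreated kidneys (right of each pair). Points are arrays and black marks are means ± SD (n = 5 each). Levels are to be compared within a probe set, and the widest gaps are those of Igf1, by 4.98 to 5.46, and Igfals, by 3.63.

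A list of other genes in and around growth hormone signalling gave no call at 500 mg/kg in either organ. Of 13 listed (among them Jak2, Cish and Socs3), 12 genes on 20 probe sets were tested in liver, and at 500 mg/kg their median difference was 0.01 with 12 of 20 above 0. The 4 with the smallest p included Prlr, the prolactin receptor, at 0.53 and 0.44 (adjusted p = 0.637 and 0.774). In kidney Prlr differed by -0.96, -0.78 and -0.25 on its 3 probe sets at 500 mg/kg (adjusted p = 0.384, 0.431 and 0.774).

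In the wider IGF and insulin system, 15 of 16 listed genes were tested in liver on 25 probe sets, again with no call at 500 mg/kg. Their median was -0.05, with 8 of 25 above 0. Igfbp7, a binding protein of low IGF affinity, differed by -0.33 (SE 0.09, adjusted p = 0.0826). Igf2r, which clears IGF-II, differed by -0.27 (adjusted p = 0.22) and Irs2, an adaptor of the insulin receptor, by -0.80 (adjusted p = 0.24). In kidney 24 probe sets of 13 genes gave no call, the smallest p being that of Pappa2, a protease of binding proteins, at 0.65 (adjusted p = 0.557).

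Of genes known in rats to follow the male pattern of growth hormone pulses, 10 of 12 listed were tested in liver on 13 probe sets. Cyp3a18, a cytochrome P450, rose by 0.61 (SE 0.09, adjusted p = 0.00146), and the other 12 were not called. The list median was -0.01, with 6 of 13 above 0. Hsd3b5, a male-specific steroid dehydrogenase, differed by 0.11 (adjusted p = 0.552). Cyp2c13 differed by 0.05 (adjusted p = 0.565). The female-pattern list had 2 of 7 genes tested on 4 probe sets, none called, with a median of 0.37 and 3 of 4 above 0. These were Cyp2c12 at -0.14 (adjusted p = 0.929) and the 3 probe sets of Prlr, of which the one not given above stood at 0.29 (adjusted p = 0.909). Among 11 tested genes, of 14 listed, of fasting and glucocorticoid response, Tat, a tyrosine aminotransferase induced by glucocorticoids, rose by 1.39 (SE 0.29, adjusted p = 0.0225) and the other 15 probe sets were not called. The liver effect of Tat also exceeded its kidney effect (difference 1.55, SE 0.34, adjusted p = 0.0451). Ppargc1a, a coactivator raised by fasting, differed by -0.75 (adjusted p = 0.249).

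The probe sets most like Ghr 1373803_a_at over the 29 livers, by Pearson's r of the values, were Tmsb4x (r = 0.84), 2 of Myh1 (r = 0.741 and 0.715), Cd302 (r = 0.708) and Prdx4 (r = 0.707). Those most like Igf1 1370333_a_at were Lamtor4 (r = 0.756), Maf (r = 0.736), Itgb3 (r = 0.703), Pacs1 (r = 0.691) and Sertad2 (r = 0.678). These were picked as the highest of the tested probe sets that name a single other gene. They share arrays and normalization, so they are a description. The r was taken over the values of all doses, so the lower Ghr values at 500 mg/kg were part of the choice. A fall of these probe sets at that dose is therefore no separate support. At 500 mg/kg Tmsb4x, an actin-binding peptide, fell (-0.32, adjusted p = 0.0403), as did Prdx4, a peroxiredoxin of the endoplasmic reticulum (-0.25, adjusted p = 0.0244), and Myh1, a myosin heavy chain, on both probe sets (-0.52 and -0.79, adjusted p = 0.0288 and 0.000391). None of those most like Igf1 was called at that dose, the smallest adjusted p being 0.058 for Maf.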

How the data were processed

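Total RNA of liver and kidney was measured on 58 Affymetrix rat arrays. Per the submitters' processing notes the deposited log2 values were made with RMA, which summarises the probes of a set; no version is given there, and no joint or separate normalization of the organs is given in the sources used here. Values ran between 1.75 and 14.85, array medians between 5.26 and 5.38. An array has no depth, so the number of arrays limits the precision.

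Groups came from the sample titles. All probe sets except 57 controls that passed the filter (over the 40th percentile of the same array, on 4 or more arrays of the organ) were fitted with limma 3.58.1 under R 4.3.3 (lmFit, eBayes with intensity trend), 1 fit per organ and 1 over both organs (14 groups), with two-sided Benjamini-Hochberg adjusted p. The dose slope used ranks 0 to 6. Fold changes are differences of log2 means. Within-group correlations used 100000 permutations. Each fit was first tested on simulated data holding 200 changed probe sets. At 500 mg/kg 62% of changes of 0.5 were called in liver and 65% in kidney. Of slopes of 0.05 per rank 41% and 47% were called, and of organ differences of 1, 85%. Smaller changes were not simulated. The platform annotation names a single gene for 20826 probe sets, several for 436 and none for 9780.

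All member probe sets are named. Of other lists, every called probe set and up to 4 of smallest p (at the top dose) could be named, and the text gives a selection. The 5 probe sets most like Ghr and Igf1 by Pearson's r were also taken. The members and lists were chosen with earlier results of these data known. Alternatives were other units of the fit, filters, eBayes settings, array weights, normalizations, blocks, dose terms and each array left out. The fit without 2 kidneys of high adipose markers, Spearman's rho and leaving out 2 livers from a correlation were chosen after seeing the data. Promoter windows came from RefSeq tables of GRCr8.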

Additional observations from a re-analysis of the deposited data

Results flagged for a closer look

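Of 210 groups of 4 or 5 arrays (15 member probe sets, 7 doses and 2 organs), 20 (9.52%) held an array far from the others of its group by Dixon's criterion, where chance flags about 1 in 20. The share flagged over all tested probe sets was not computed, and probe sets of the same gene on the same arrays were counted separately. The excess is therefore not shown to be particular to the members. No explanation was weighed.

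In kidney, Igf1 was high in the third untreated kidney on its 3 probe sets, at 9.40 on 1370333_a_at (the others at 7.97 to 8.22), 7.15 on 1382599_at (6 to 6.04) and 8.68 on 1388469_at (7.37 to 7.64). The third kidney at 0.1 mg/kg was at 8.48 on 1370333_a_at (7.95 to 7.98). Igfals was high in the first untreated kidney, at 7.15 (6.45 to 6.57), and in the first kidney at 1 mg/kg, at 7.13 (6.88 to 6.91). Igfbp2 was low in the third kidney at 300 mg/kg, at 7.77 (8.01 to 8.04), an array with high adipose markers. Stat5a stood at 6.55 in the second kidney at 500 mg/kg (6.39 to 6.42), and Igf1r 1392492_at at 7.68 in the first kidney at 10 mg/kg (7.93 to 7.96).

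In liver, Igf1 1370333_a_at stood at 13.22 in the first liver at 500 mg/kg, above the others, which all read 13.13. Ghr 1368924_at was at 8.84 in the second untreated liver (8.42 to 8.53). Stat5a was at 6.47 in the second liver at 300 mg/kg (6.86 to 6.90). Stat5b was at 6.24 in the third liver at 0.1 mg/kg (6.56 to 6.61) and at 6.58 in the fourth at 10 mg/kg (6.40 to 6.43). Igfbp2 was at 8.59 in the fourth liver at 0.1 mg/kg (7.66 to 7.81). Igfbp3 1386881_at was at 8.89 in the first liver at 10 mg/kg (9.09 to 9.13) and at 9.24 in the third at 100 mg/kg (8.98 to 9). The dim Igf1r 1392492_at was low in the second untreated liver, at 3.92 (4.57 to 4.74), in the fourth at 0.1 mg/kg, at 4.14 (4.60 to 4.65), and in the fourth at 500 mg/kg, at 4.02 (4.38 to 4.43).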

How the results depend on the processing

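The Ghr 1373803_a_at difference in liver at 500 mg/kg lay between -0.32 and -0.28 in the 29 fits that each left out an array and was called in 26 of them, with 0 to 1 members called. In 11 other settings it lay between -0.30 and -0.18 and was called in 8. At 500 mg/kg in liver 0 members were called with probe sets averaged per gene, without the intensity trend (adjusted p of Ghr = 0.0558) and with the replicate block (adjusted p = 0.0622), and 2 with only the compared groups or with array weights, Igf1 1382599_at being the second. The liver slope called 0 members with averaged probe sets, 2 with array weights, 3 with quantile normalization or with dose in mg/kg, and 1 to 2 with an array left out, Igf1 joining Ghr each time. The organ difference called 1 member, Ghr, with array weights (adjusted p = 0.0207) or a random block of dose and number (adjusted p = 0.0472), and 0 to 1 with an array left out. Between untreated organs 12 members were called, and 10 to 12 with an array left out. The cause of these moves was not tested. No called value changed sign in any setting.

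Calls over all probe sets in liver at 500 mg/kg were 130, and 42 with the replicate block, 62 without the trend, 77 with the compared groups alone, 86 without a filter, 289 with array weights, and 47 to 140 with an array left out. The liver slope gave 227, and 100 to 1074 in other settings or 59 to 277 with an array left out. The kidney gave 4 at 500 mg/kg (0 to 80 over all settings) and 19 for the slope (0 to 246), and the organ difference 19 (2 to 96). Members never called changed sign in some setting in 3 of 12 cases in liver and 6 of 14 in kidney at 500 mg/kg.

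Replicate numbers did not pair arrays within an organ (mean correlation of same-numbered deviations -0.006 in liver and 0.023 in kidney). Between organs it was 0.139, the lowest pair -0.01, and 26 of 29 livers were closest to the kidney of their own number, a hint from the data and not the design. A fixed block of the replicate number joins arrays of different doses, so it cannot test a pairing of liver and kidney. With that block both organ contrasts kept their member counts of 0 and 12. The random block of dose and number, given above, joins a liver to the kidney of equal dose and number. With the random block Ghr was called in the organ difference, which was not the case in the main fit.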

Other observations

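Igfbp1 ranged from 7.21 to 12 over the 29 livers and Igfbp2 from 6.72 to 8.89, while Igf1 1370333_a_at stayed between 13.13 and 13.43. In kidney the same Igfbp1 probe set ranged from 7.90 to 9.05. The fourth untreated liver held the lowest Igfbp1 (7.21) and a low Igfbp2 (7.02), with Igfals at 10.58 and Socs2 at 7.92. The second untreated liver held the highest untreated Igfbp1 (10.40) and Igfbp2 (8.78), with the lowest untreated Igfals (9.68).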
